A study of Mus musculus with 9 samples.

Results

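The genes described here are 10 genes of antigen presentation by major histocompatibility complex (MHC) class I, namely the class I chains *H2-K1*, *H2-D1*, *H2-Q6* and *H2-T23*, the light chain *B2m*, the peptide transporter genes *Tap1* and *Tap2*, the loading factor *Tapbp*, the trimming enzyme *Erap1* and the transcriptional coactivator *Nlrc5*. Their Entrez numbers, in the same order, are 14972, 14964, 110557, 15040, 12010, 21354, 21355, 21356, 80898 and 434341. They were chosen by name, with earlier results of these data known, and all 10 were among the 14108 genes with counts in 9 mouse mammary tumours (3 of HR1, 3 of LM1 and 3 of LM9), and all passed the filter on low counts. HR1 is a non-metastatic line from a mammary tumour of a transgenic mouse that carried PIK3CA H1047R, an activating mutation of a PI3-kinase, under the CAG promoter. LM1 and LM9 are lines grown out of lung metastases of HR1 cells that carried a doxycycline-inducible *piggyBac* transposon, so that each model is a single cell line and both LM lines share their origin with HR1. For each tumour 250000 cells in Matrigel and PBS were injected into the mammary fat pad of female NOD/SCID mice (labelled NOD.CB17-Prkcd<scid>/J, although the scid allele is one of *Prkdc*) aged 4 to 8 weeks, tumours were taken before a volume of 1500 mm3, and GFP-positive cells were sorted for total RNA. These hosts lack functional T and B lymphocytes. Nothing in the labels ties a library to a single mouse, so the p-values below measure the spread between these libraries.

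MHC class I molecules show peptides from inside the cell to cytotoxic T cells and natural killer cells. The proteasome cuts proteins into peptides, TAP1 and TAP2 form the pump that carries the peptides into the endoplasmic reticulum, ERAP1 trims them there, and tapasin, the product of *Tapbp*, holds an empty class I molecule next to the pump until a peptide fits. Each molecule has a heavy chain, such as H2-K and H2-D, and the invariant light chain beta-2-microglobulin. Interferons raise most of these genes together through factors such as STAT2, IRF1 and IRF9, and NLRC5 acts at class I promoters with factors bound to the X and Y boxes.

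The promoters of 8 of the 10 genes were found in RefSeq (GRCm38.p6, from 250 bases before to 50 after the annotated start), with no entry for *Tap2* and *Nlrc5*. Those of *H2-K1*, *H2-D1*, *H2-T23*, *B2m* and *Tap1* are shown because they let a reader set the classical heavy chains beside the non-classical chain that did not pass the test in LM1, the light chain and the peptide pump. Capitals mark matches, on either strand, to the core of the interferon-stimulated response element (TTTCNNTT), a kappa B site (GGGGATTCC), the X2 box (TGACG) and the Y box (CCAAT). No marked match overlaps another.
H2-K1, chr17:34000298-34000597, minus strand: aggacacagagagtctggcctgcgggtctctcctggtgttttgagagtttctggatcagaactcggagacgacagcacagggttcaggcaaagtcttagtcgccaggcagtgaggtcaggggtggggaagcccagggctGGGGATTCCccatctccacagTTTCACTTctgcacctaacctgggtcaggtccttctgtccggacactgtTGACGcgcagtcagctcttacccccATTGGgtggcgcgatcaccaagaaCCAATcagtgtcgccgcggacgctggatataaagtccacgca
H2-D1, chr17:35262844-35263143, plus strand: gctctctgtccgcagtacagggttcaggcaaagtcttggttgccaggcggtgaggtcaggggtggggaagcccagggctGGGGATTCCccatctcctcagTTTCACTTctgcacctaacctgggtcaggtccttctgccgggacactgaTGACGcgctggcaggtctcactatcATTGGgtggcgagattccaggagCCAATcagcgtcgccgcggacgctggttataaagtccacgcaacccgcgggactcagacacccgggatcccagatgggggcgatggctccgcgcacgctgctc
H2-T23, chr17:36032652-36032951, minus strand: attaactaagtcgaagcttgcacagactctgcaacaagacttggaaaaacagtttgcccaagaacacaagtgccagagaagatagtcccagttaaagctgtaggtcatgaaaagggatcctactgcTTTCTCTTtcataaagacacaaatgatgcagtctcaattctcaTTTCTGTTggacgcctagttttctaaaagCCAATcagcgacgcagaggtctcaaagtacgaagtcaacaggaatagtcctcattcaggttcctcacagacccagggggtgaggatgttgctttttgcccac
B2m, chr2:122147437-122147736, plus strand: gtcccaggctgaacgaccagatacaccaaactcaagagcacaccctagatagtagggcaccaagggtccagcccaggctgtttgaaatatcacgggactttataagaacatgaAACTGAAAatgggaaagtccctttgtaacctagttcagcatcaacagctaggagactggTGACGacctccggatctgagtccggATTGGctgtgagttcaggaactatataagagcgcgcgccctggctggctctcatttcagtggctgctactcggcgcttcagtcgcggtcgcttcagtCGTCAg
Tap1, chr17:34187306-34187605, plus strand: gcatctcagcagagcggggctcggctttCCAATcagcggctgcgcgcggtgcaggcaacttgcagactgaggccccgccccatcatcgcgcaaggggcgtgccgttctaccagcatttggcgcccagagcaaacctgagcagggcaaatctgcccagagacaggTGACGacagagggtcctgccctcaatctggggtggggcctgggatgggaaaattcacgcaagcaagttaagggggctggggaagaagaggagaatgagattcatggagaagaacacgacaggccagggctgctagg

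The kappa B letters preceded the interferon response core on the same strand in *H2-K1* (bases -111 to -103 and -90 to -83 from the first of 2 annotated starts, and -125 to -117 and -104 to -97 from the second), in *H2-D1* (-171 to -163 and -150 to -143) and in *H2-Q6* (-173 to -165 and -152 to -145). The *H2-T23* promoter had no kappa B match and held 2 interferon response cores, at -124 to -117 and -81 to -74, and that of *B2m* held the core on the opposite strand at -137 to -130. Among the 8 promoters the interferon response core was found in 6, against 23.9% of all 32851 promoters, and the kappa B letters in 3, against 0.25%. The X2 letters were in 4 (*H2-K1*, *H2-D1*, *B2m* and *Tap1*), against 20.8% of all promoters, and the Y letters in 7, against 37.4%. The window of *Tap1* overlaps that of *Psmb9*, an immunoproteasome gene on the opposite strand (chr17:34187281-34187580). The 3 promoters with the kappa B letters, of *H2-K1*, *H2-D1* and *H2-Q6*, are closely alike around the match and do not count as independent. The kappa B letters are also a fixed run with no variable position. The share of 0.25% therefore cannot serve as a test of enrichment, and none was made for any of the motifs. A match is a run of letters and not a measured binding site, and the interferon response letters were chosen after the promoters were seen.

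Total counts per tumour lay between 32393958 and 46681945. Levels are given as CPM, the counts of a gene per 1e6 counts of its library, on library sizes scaled by TMM, and as RPKM, which also divides by exon length, where genes are compared with each other. One HR1 library stood apart. *Nfib*, the transcription factor under study, was at 1343 CPM in HR1 tumour 1 against 23.9 and 18.3 in the other HR1 tumours, 421 to 791 in the LM tumours, and the fibroblast gene *Dcn*, named here after its values were seen, was at 17605 CPM there against 432 and 329. For this reason the effect of leaving out HR1 tumour 1 is given below. Of 10 mammary epithelial markers 4 (*Krt8*, *Cldn7*, *Esrp1* and *Elf5*) were not among the listed genes, *Epcam* was at most 4.49 CPM, and *Krt14*, the most abundant, was at 1.56 to 109 CPM in HR1, 152 to 175 in LM1 and 12.2 to 15.4 in LM9.

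The classical heavy chain genes *H2-K1* and *H2-D1*, whose products present peptides to cytotoxic T cells, were lowest in HR1, intermediate in LM1 and highest in LM9. *H2-K1* (chr17:33996012-34000619) was at 463, 223 and 317 CPM in the HR1 tumours, 821, 724 and 837 in LM1, and 1795, 1584 and 1895 in LM9. *H2-D1* (chr17:35263094-35267497) was at 462, 219 and 368 CPM in HR1, 1017, 888 and 940 in LM1, and 2397, 2102 and 2531 in LM9. For both genes the lowest LM1 tumour was above the highest HR1 tumour and the lowest LM9 tumour above the highest LM1 tumour. Mean *H2-K1* was 334 ± 121, 794 ± 61.3 and 1758 ± 159 CPM in HR1, LM1 and LM9 (SD, n = 3), and mean *H2-D1* 350 ± 122, 948 ± 64.8 and 2343 ± 219 CPM. By the quasi-likelihood test of edgeR, with p-values adjusted over all tested genes by Benjamini-Hochberg, *H2-K1* rose by a log2 fold change of 1.25 ± 0.25 (SE) in LM1 (adjusted p = 0.0053) and 2.40 ± 0.25 in LM9 (adjusted p = 2.9e-04), the latter a 5.26-fold difference. *H2-D1* rose by 1.44 ± 0.25 in LM1 (adjusted p = 0.00297) and by 2.74 ± 0.26 in LM9 (adjusted p = 1.7e-04), a 6.7-fold difference. Without HR1 tumour 1 the LM1 changes were 1.56 and 1.70, and those in LM9 2.71 and 3.00.

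Both chains were also higher in LM9 than in LM1. The log2 difference was 1.31 ± 0.25 for *H2-D1* (adjusted p = 0.00859) and 1.15 ± 0.24 for *H2-K1* (adjusted p = 0.0134). The *H2-K1* call missed the threshold without LM1 tumour 1, LM9 tumour 1 or LM9 tumour 3, with adjusted p between 0.0513 and 0.0565 while the difference stayed between 1.09 and 1.17. Heavy chain genes resemble each other. Of all 50-base windows along the exons, the length of the reads, 9.63% for *H2-K1* and 12.8% for *H2-D1* also occur in another annotated gene, mostly another class I gene, so a part of their counts may have been shared between them.

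The 2 non-classical chains among the 10 differed from each other in LM1. *H2-Q6*, a Qa-2 family gene of the Q region (chr17:35424850-35430055), was at 41, 25.5 and 27.9 CPM in HR1, 121, 111 and 116 in LM1, and 284, 239 and 313 in LM9. Its groups did not overlap, and its changes were 1.88 ± 0.20 in LM1 (adjusted p = 3.5e-04) and 3.15 ± 0.21 in LM9 (adjusted p = 3.4e-05) against HR1, and 1.26 ± 0.19 between LM9 and LM1 (adjusted p = 0.00384). Its changes against HR1 without HR1 tumour 1 were 2.13 in LM1 and 3.39 in LM9. Its level is uncertain, since 35% of its 50-base windows occur in other genes, chiefly *H2-Q7* and *H2-Q4*. *H2-T23* encodes Qa-1, which shows signal peptides of other class I chains to the inhibitory receptor NKG2A of natural killer cells (chr17:36029977-36032701). It was at 75.7, 37.8 and 40.5 CPM in HR1, 59.4, 53.1 and 63.7 in LM1, and 241, 202 and 245 in LM9. HR1 tumour 1 was above all LM1 tumours and the other HR1 tumours were below them, so that HR1 and LM1 overlapped, whereas the LM9 tumours stood above both models.

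For *H2-T23* the log2 difference between LM1 and HR1 was 0.20 ± 0.25 (adjusted p = 0.58), between LM9 and HR1 2.16 ± 0.26 (adjusted p = 5.7e-04), and between LM9 and LM1 1.96 ± 0.26 (adjusted p = 0.00231). Without HR1 tumour 1 the LM1 difference was 0.59 (adjusted p = 0.00486 by edgeR), past the threshold, so this single library decided the call. In its 50-base windows 14.5% were shared with other genes.

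*B2m*, which encodes the light chain that every class I molecule needs to reach the cell surface (chr2:122147687-122153082), was the most abundant of the 10 genes per length in every model, with mean RPKM of 1291, 3026 and 6027 in HR1, LM1 and LM9. It was at 1305, 1101 and 925 CPM in HR1, 2845, 2202 and 2761 in LM1, and 5115, 4801 and 5633 in LM9. No model overlapped another. The light chain gene rose by 1.23 ± 0.18 in LM1 (adjusted p = 0.00131) and by 2.22 ± 0.18 in LM9 (adjusted p = 8.9e-05) against HR1, and LM9 exceeded LM1 by 0.99 ± 0.18 (adjusted p = 0.00657). The changes against HR1 were 1.37 and 2.36 without HR1 tumour 1. None of its 50-base windows occurs in another gene, and it lies outside the MHC region.

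The summed RPKM of *H2-K1* and *H2-D1* relative to that of *B2m* was 0.222, 0.126 and 0.233 in the HR1 tumours, 0.204, 0.231 and 0.202 in LM1, and 0.259, 0.243 and 0.248 in LM9. The LM1 tumours lay within the HR1 range, and the LM9 tumours above all others. With 3 against 3 tumours a two-sided exact permutation test cannot give less than 0.1; it gave p = 0.9 for LM1 against HR1 (difference 0.0186) and p = 0.1 for LM9 against each of the other models (0.0564 against HR1 and 0.0378 against LM1).

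The peptide pump genes rose in both LM models. *Tap1* (chr17:34187556-34197225) was at 49.3, 57.5 and 80.1 CPM in HR1, 119, 117 and 127 in LM1, and 288, 236 and 298 in LM9. *Tap2* (chr17:34204479-34216321), its partner in the pump, was at 69.3, 125 and 111 CPM in HR1, 179, 171 and 198 in LM1, and 345, 251 and 355 in LM9. The models did not overlap for either gene. *Tap1* differed by 0.96 ± 0.19 (adjusted p = 0.0054) in LM1 and 2.14 ± 0.20 (adjusted p = 1.4e-04) in LM9 against HR1, and by 1.18 ± 0.19 (adjusted p = 0.00453) between the LM models. The corresponding *Tap2* differences were 0.85 ± 0.23 (adjusted p = 0.0203), 1.64 ± 0.23 (adjusted p = 0.00104) and 0.80 ± 0.23 (adjusted p = 0.0381).

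Of these, the LM1 change of *Tap2* missed the threshold when any 1 LM1 tumour was left out (adjusted p 0.0504 to 0.0651), and the difference of *Tap2* between LM9 and LM1 did so when any 1 LM tumour was left out (adjusted p 0.053 to 0.128). Exons of *Tap1* overlap those of *Psmb9* on the opposite strand over 212 bases, and those of *Tap2* overlap the long non-coding RNA *Gm15821* over 533 bases. Without HR1 tumour 1 the changes of *Tap2* were 0.64 in LM1 and 1.43 in LM9, and that of *Tap1* in LM1 was 0.82, each past the threshold. The strand setting of the counting is not given in the sources used here, so reads in these stretches cannot be assigned with certainty.

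*Tapbp*, which encodes tapasin (chr17:33919478-33929290), was the most variable of the 10 in HR1 after *Nlrc5* in relation to its mean, with 259, 469 and 681 CPM in the HR1 tumours. It was at 483, 488 and 426 CPM in LM1 and 916, 841 and 1071 in LM9. LM1 lay inside the HR1 range and all LM9 tumours above it. The LM1 difference was -0.01 ± 0.30 on the log2 scale (adjusted p = 0.979), that of LM9 against HR1 1.01 ± 0.30 (adjusted p = 0.0262) and that of LM9 against LM1 1.02 ± 0.30 (adjusted p = 0.0421). Without HR1 tumour 1 the differences against HR1 were -0.30 in LM1 and 0.72 in LM9 (edgeR, adjusted p = 0.174 and 0.00701). The LM9 calls were not stable: against HR1 the adjusted p lay between 0.0549 and 0.0822 without HR1 tumour 2 or any 1 LM9 tumour, and against LM1 between 0.0902 and 0.138 without any 1 LM tumour. Its exons overlap those of neighbouring genes, *Gm19412* over 904 bases among them, and 23.2% of its 50-base windows are shared.

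*Nlrc5*, the coactivator of class I transcription (chr8:94434335-94527272), had the lowest level per length of the 10 genes and the largest difference between LM9 and HR1. It had 27, 46 and 14 counts in the HR1 tumours, or 0.898, 1.04 and 0.36 CPM, against 1.97, 2.06 and 1.4 CPM in LM1 and 19.6, 7.32 and 9.95 CPM in LM9. The models did not overlap, and LM9 tumour 1 was well above the other LM9 tumours. The log2 fold change against HR1 was 4.0 ± 0.53 in LM9 (adjusted p = 8.0e-04), a 16-fold difference, and that between LM9 and LM1 was 2.76 ± 0.50 (adjusted p = 0.00693). Without LM9 tumour 1 these were 3.49 and 2.25, both past the threshold. In LM1 the difference from HR1 of 1.24 ± 0.49 did not pass the edgeR test (adjusted p = 0.0771), although it did with DESeq2 (adjusted p = 0.0365). It was 1.37 without HR1 tumour 1 (edgeR, adjusted p = 0.056), and that of LM9 was 4.12.

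*Erap1*, the aminopeptidase that trims peptides to fit (chr13:74639573-74693205), had another pattern. It was at 41.6, 32.5 and 37.3 CPM in HR1, 75.8, 80.5 and 77.5 in LM1, and 76.1, 70.7 and 91.1 in LM9. Both LM models stood above HR1 and overlapped each other. It rose by 1.07 ± 0.14 in LM1 (adjusted p = 0.00102) and 1.10 ± 0.14 in LM9 (adjusted p = 7.9e-04), whereas LM9 and LM1 differed by 0.03 ± 0.14 (adjusted p = 0.918). The changes against HR1 became 1.17 and 1.19 without HR1 tumour 1. Its exons overlap those of *Cast* over 834 bases, and 10.7% of its windows are shared.

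**Figure D1:**
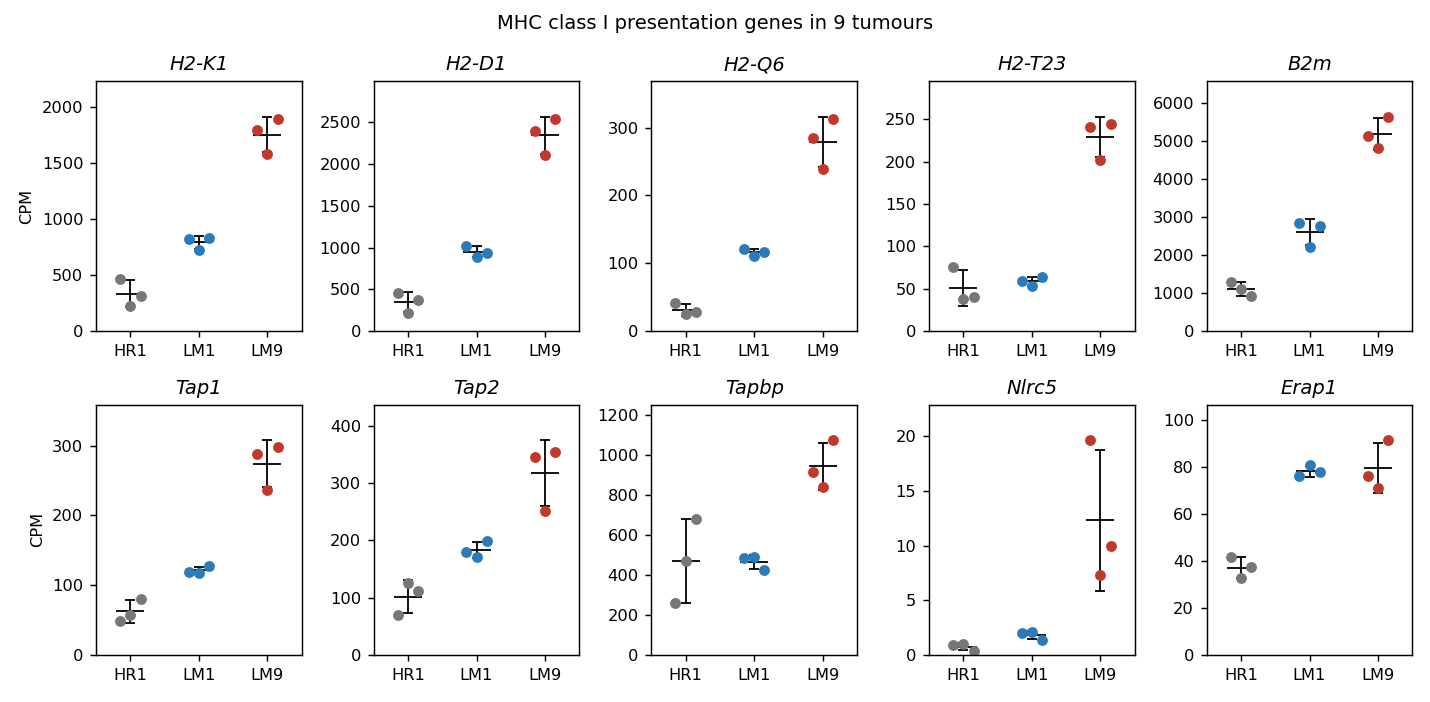
Level in CPM (vertical axes, each starting at 0) of the 10 genes in the 3 HR1, 3 LM1 and 3 LM9 tumours, 1 point a tumour, with a line at the mean and bars for the SD. For 7 genes (*H2-K1*, *H2-D1*, *H2-Q6*, *B2m*, *Tap1*, *Tap2* and *Nlrc5*) the models form 3 separate steps; for *H2-T23* and *Tapbp* HR1 and LM1 overlap, and for *Erap1* LM1 and LM9 do.

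In LM9 the second tumour had the lowest CPM for all 10 genes. In HR1 the first tumour, the one with high *Nfib*, had the highest CPM for *H2-K1*, *H2-D1*, *H2-Q6*, *H2-T23*, *B2m* and *Erap1* and the lowest for *Tap1*, *Tap2* and *Tapbp*. In LM1 the second tumour had the lowest CPM for 7 genes and the highest for *Tapbp*, *Nlrc5* and *Erap1*. These orders describe 3 libraries each and were not tested.

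In sum over the 10 genes, the tumours held 2291 to 2766 CPM in HR1, 4835 to 5722 in LM1 and 10334 to 12443 in LM9, or on average 0.255%, 0.537% and 1.14% of all counts. Against HR1, 7 of the 10 genes rose in LM1, where 16.7% of the 14086 tested genes rose and 18.7% fell, and 10 of 10 rose in LM9, where 20.4% rose and 21.9% fell. Between LM9 and LM1, 9 of 10 were higher in LM9, against 11.5% of all tested genes that were higher and 10.6% that were lower. In both LM models together 9 of 10 rose, against 19.9% of all tested genes that rose and 23.6% that fell, the exception being *Tapbp* at 0.50 ± 0.26 (adjusted p = 0.156). This exception rested on 1 library, since without HR1 tumour 3 *Tapbp* was at 0.87 (edgeR, adjusted p = 0.0198), while without HR1 tumour 1 it was at 0.21 (adjusted p = 0.279). None of the 10 fell in any comparison. Every LM1 tumour was above every HR1 tumour for 8 of the 10 genes, against 23.9% of all tested genes. The same held for 10 of 10 genes between LM9 and HR1, against 28.0%, and for 9 of 10 between LM9 and LM1, against 31.9%. The median log2 fold change of the 10 was 1.15, 2.19 and 1.16 for LM1 against HR1, LM9 against HR1 and LM9 against LM1, and that of all tested genes -0.04, -0.05 and 0.00. The comparisons share tumours and are not independent of each other. Without HR1 tumour 1 the counts of genes that rose were 8, 10 and 9.

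**Figure D2:**
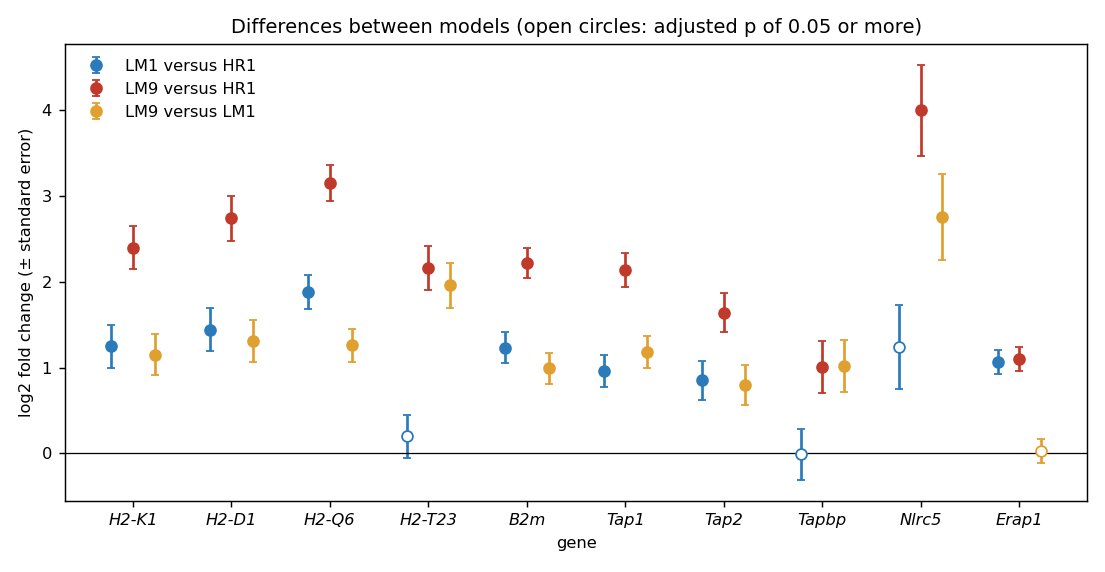
Log2 fold change (vertical axis) of the 10 genes (horizontal axis) in LM1 against HR1, LM9 against HR1 and LM9 against LM1, with bars for the standard error. Filled points passed the adjusted p threshold of 0.05 and open points did not; these are LM1 against HR1 for *H2-T23*, *Tapbp* and *Nlrc5*, and LM9 against LM1 for *Erap1*.

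Per length, *B2m* was followed in LM9 by *H2-D1* (909 RPKM), *H2-K1* (598), *Tapbp* (260), *H2-Q6* (134), *Tap2* (83.9), *H2-T23* (79.2), *Tap1* (50), *Erap1* (10.9) and *Nlrc5* (1.45). *Tapbp*, at 129 RPKM, lay between *H2-D1* (136) and *H2-K1* (114) in HR1, where the spread of these 3 genes exceeded the distance between them. *H2-Q6* was at 15.1 RPKM in HR1, close to *H2-T23* at 17.8, and above it in LM1 at 55.7 against 20.3.

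The other class I and class I-like chains moved in the same direction as the 10 genes for the most part. Of 22 such genes 19 had counts, of which 10 rose and 2 fell in LM1, and 13 rose and 2 fell in LM9, with median log2 fold changes of 1.11 and 2.53. Of all tested genes 16.7% rose and 18.7% fell in LM1, and 20.4% rose and 21.9% fell in LM9. Between LM9 and LM1, 11 of 19 were higher in LM9 and none lower, against 11.5% and 10.6% of all tested genes; 17 were called without HR1 tumour 1, whose loss changes the shared estimate of spread, and 6 or 7 without LM1 tumour 1 or 3 or any 1 LM9 tumour. *H2-Q7*, a Qa-2 gene, was at 0.978 to 2.12 CPM in HR1, 9.08 to 12.3 in LM1 and 19.6 to 25.3 in LM9, and rose by 2.73 ± 0.31 (adjusted p = 4.5e-04) and 3.74 ± 0.32 (adjusted p = 1.1e-04) on the log2 scale. *H2-T24* had the pattern of its neighbour *H2-T23*, with 1.36 to 4.19 CPM in HR1, 1.65 to 2 in LM1 and 15.2 to 21.2 in LM9 and a log2 difference of 3.36 ± 0.44 between LM9 and LM1 (adjusted p = 0.00205). The 2 genes that fell, named here after their values were seen, were *Mr1*, which presents bacterial metabolites, and *Fcgrt*, the neonatal Fc receptor. Their log2 fold changes in LM9 were -3.29 ± 0.39 (adjusted p = 5.1e-04) and -1.39 ± 0.44 (adjusted p = 0.0336). Neither presents peptides to conventional T cells.

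Upstream of the pump, parts of the proteasome that interferon induces rose in both LM models, and constitutive core genes fell in LM9. Of 5 inducible genes 3 rose in LM1 and 4 in LM9, against 16.7% and 20.4% of all tested genes. In LM1 5 were called without HR1 tumour 1, and in LM9 2 were called without HR1 tumour 2 or 3 or any 1 LM9 tumour. *Psmb8*, a catalytic subunit of the immunoproteasome, was at 118 to 161 CPM in HR1, 350 to 475 in LM1 and 480 to 586 in LM9, with log2 fold changes of 1.61 ± 0.18 (adjusted p = 4.3e-04) and 1.91 ± 0.18 (adjusted p = 1.7e-04). *Psmb9*, another catalytic subunit, was at 13.9 to 24.4, 40.8 to 52.1 and 89.6 to 125 CPM. It was the only 1 of the 5 to pass the test between LM9 and LM1 (1.17 ± 0.23, adjusted p = 0.00942), where 11.5% of all tested genes were higher in LM9 and 10.6% lower. Of the 14 constitutive core genes 2 rose and 0 fell in LM1, where 16.7% of all tested genes rose and 18.7% fell. In LM9 0 rose and 6 fell against HR1 (20.4% and 21.9% of all tested genes) and 10 fell against LM1 (10.6% of all tested genes). Without HR1 tumour 1, 6 were called in LM1; without LM9 tumour 1, 2 were called in LM9 against HR1 and 4 against LM1, the latter count being 5 or 6 without LM1 tumour 1 or 3 or LM9 tumour 2 or 3. Among them *Psma6*, a structural subunit, fell by 0.93 ± 0.16 on the log2 scale in LM9 (adjusted p = 0.00253), and *Psmb5*, the constitutive counterpart of *Psmb8*, fell by 0.85 ± 0.21 (adjusted p = 0.0128).

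The summed RPKM of the 3 immunoproteasome catalytic subunits relative to that of their constitutive counterparts was 0.248, 0.222 and 0.324 in HR1, 0.748, 0.752 and 0.712 in LM1, and 1.36, 1.08 and 1.36 in LM9. The 3 models did not overlap, and in LM9 alone the sum of the immunoproteasome subunits exceeded that of the constitutive ones in every tumour. *Psmb8* carried most of that sum, at 142 to 173 RPKM in LM9 against 34.8 to 40.2 for *Psmb5*, whereas *Psmb9*, at 24.5 to 34.2 RPKM, was below its counterpart *Psmb6* at 90.2 to 113, the latter named after its values were seen. The two-sided exact permutation test gave p = 0.1 for each pair of models, the smallest it can give, and p = 0.0238 for the 6 LM tumours against the 3 HR1 tumours, also the smallest.

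Partners of peptide trimming and loading showed no common direction. Of 13 genes 2 rose and 3 fell in LM1, and 2 rose and 4 fell in LM9, shares near those of all tested genes (16.7% and 18.7% in LM1, 20.4% and 21.9% in LM9). In LM1 9 were called without HR1 tumour 1, 3 without LM1 tumour 1 and 2 without LM1 tumour 2. *Tapbpl*, which encodes the tapasin-related editor TAPBPR, rose in LM9 by 1.28 ± 0.26 (adjusted p = 0.00547), and *Npepps*, a cytosolic aminopeptidase, by 0.93 ± 0.13 (adjusted p = 9.1e-04). The chaperones that hold newly made heavy chains fell in LM9, *Calr* (calreticulin) by 0.85 ± 0.20 (adjusted p = 0.00951) and *Canx* (calnexin) by 0.49 ± 0.15 (adjusted p = 0.0317) on the log2 scale. In both LM models together the log2 fold changes of *Calr* and *Canx* were -0.70 and -0.59.

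Among 18 regulators of class I transcription 8 rose in each LM model, against 16.7% (LM1) and 20.4% (LM9) of all tested genes. In LM1 1 fell and in LM9 0 fell, against 18.7% and 21.9%. Between LM9 and LM1, 5 were higher and 1 lower, against 11.5% and 10.6%, and the median log2 difference of the 18 was 0.10. Of the 18, *Stat2*, *Irf9* and *Irf1* were highest in LM9, as the heavy chains were, whereas *Irf2*, named after its values were seen, had mean levels of 22, 29.3 and 28.3 CPM in HR1, LM1 and LM9 and was called in no comparison. *Stat2*, a signal transducer of type I interferon, was at 21.9 to 32.7 CPM in HR1, 49.3 to 68.4 in LM1 and 169 to 272 in LM9. It rose by 1.00 ± 0.23 (adjusted p = 0.00996) in LM1 and 2.93 ± 0.24 (adjusted p = 9.1e-05) in LM9. *Irf9*, the DNA-binding partner of STAT2, rose by 1.14 ± 0.23 (adjusted p = 0.00638) and 2.16 ± 0.24 (adjusted p = 3.7e-04), and *Irf1* by 1.05 ± 0.16 (adjusted p = 0.0015) and 1.59 ± 0.16 (adjusted p = 2.1e-04). *Ezh2*, the Polycomb methyltransferase, which represses class I genes in some tumours, rose as well, by 1.23 ± 0.12 in LM1 (adjusted p = 2.6e-04) and 0.93 ± 0.12 in LM9 (adjusted p = 6.8e-04).

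Class II presentation, the sister pathway that shows peptides to helper T cells, went the other way in LM9. Of 10 listed class II genes 1 rose and 0 fell in LM1, while 1 rose and 8 fell in LM9 against HR1 and 5 fell against LM1. Of all tested genes 16.7% rose and 18.7% fell in LM1, 20.4% rose and 21.9% fell in LM9, and 10.6% were lower in LM9 than in LM1. In LM1 2 were called without HR1 tumour 1 and 4 without HR1 tumour 3, and against LM1 2 or 3 were called without LM1 tumour 1 or 3 or any 1 LM9 tumour. *H2-Aa* was at 61.1, 28.6 and 17.7 CPM in HR1, 18.9, 20.3 and 25.2 in LM1, and 6.93, 4.94 and 7.2 in LM9. All LM9 tumours were below all others and HR1 and LM1 overlapped, with a log2 fold change in LM9 against HR1 of -2.49 ± 0.42 (adjusted p = 0.0023). *H2-Ab1*, which encodes the beta chain of the same molecule, had a log2 fold change of -2.17 ± 0.36 (adjusted p = 0.00211). The gene that rose was *Ciita*, the class II coactivator and a relative of *Nlrc5*, with 0.315 to 0.465 CPM in HR1, 0.889 to 2.29 in LM1 and 1.12 to 1.74 in LM9, and log2 fold changes of 2.07 ± 0.46 (adjusted p = 0.00888) and 1.88 ± 0.46 (adjusted p = 0.0116). Against HR1, leukocyte markers fell alongside the class II genes, 9 of 12 in LM9. Among these *Csf1r* was at -2.43 ± 0.48 (adjusted p = 0.00477), *Tyrobp* at -2.85 ± 0.51 (adjusted p = 0.00289) and *Lyz2* at -2.96 ± 0.55 (adjusted p = 0.00366), genes of macrophages and other myeloid cells named after their values were seen. *Cd68* of the same list, also named after its value was seen, was at 1.03 ± 0.49 and did not pass (adjusted p = 0.122). Between LM9 and LM1, 0 of the 12 fell and only *Cd68* rose (2.89 ± 0.52, adjusted p = 0.00726), against 10.6% and 11.5% of all tested genes. The part of leukocytes in the class II difference was not tested.

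**Figure D3:**
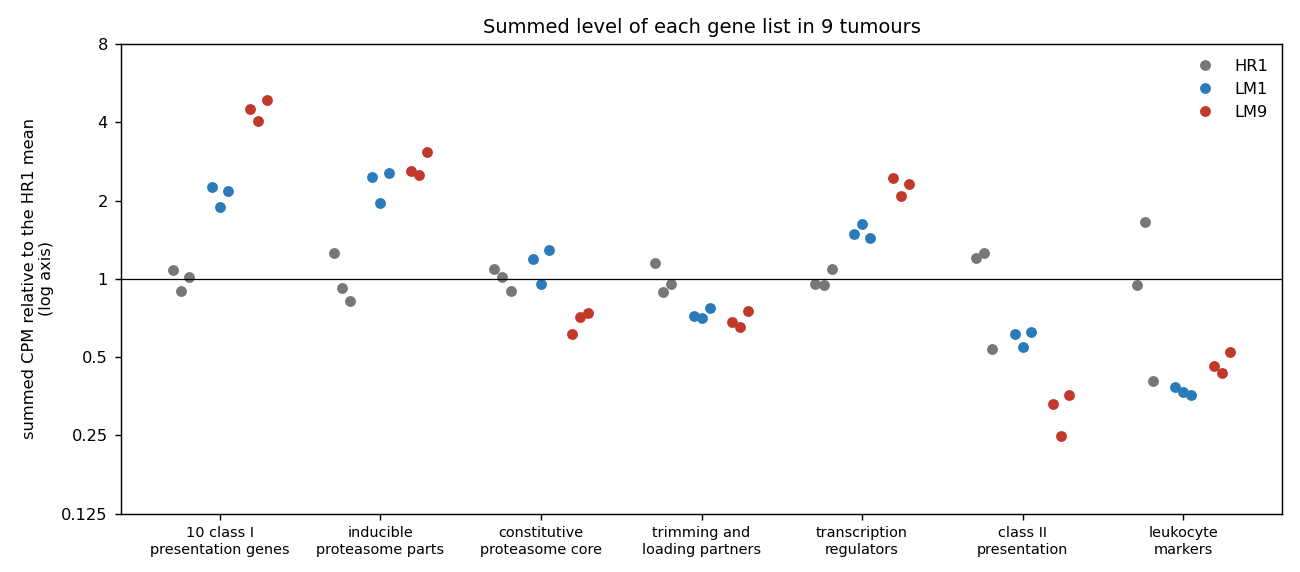
Summed CPM of each gene list in each of the 9 tumours relative to the HR1 mean (vertical axis, log scale), with 1 point a tumour coloured by model. The 10 genes form 3 steps, whereas the constitutive proteasome core and the class II genes are lowest in LM9.

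Most of the 10 genes lie in the MHC region of chromosome 17, where class I, class II and proteasome genes are interleaved. From *Tapbp* to *H2-T23*, over 2.11 Mb, 7 of the 10 genes were tested, with 8 other class I chains, 2 immunoproteasome genes, 6 class II genes of the list and 83 further genes, among them the class II chain *H2-Ea*, which is outside the list and was not called in LM9 against HR1. In LM9 against HR1 all 7 rose, 7 of the 8 other class I chains and both immunoproteasome genes rose, and 5 of the 6 listed class II genes fell. Of the 83 further genes 11 rose and 23 fell, with a median log2 fold change of -0.32, where 20.4% of all tested genes rose and 21.9% fell with a median of -0.05. *Tap1*, *Tap2*, *Psmb8* and *Psmb9* are neighbours that lie between class II genes, with *H2-DMa* on the *H2-K1* side and *H2-Ab1* on the other. *H2-DMa*, a class II peptide loading gene, had a log2 fold change of -1.48 ± 0.18 (adjusted p = 5.9e-04) in LM9, and neighbouring genes of this stretch thus moved in opposite directions.

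**Figure D4:**
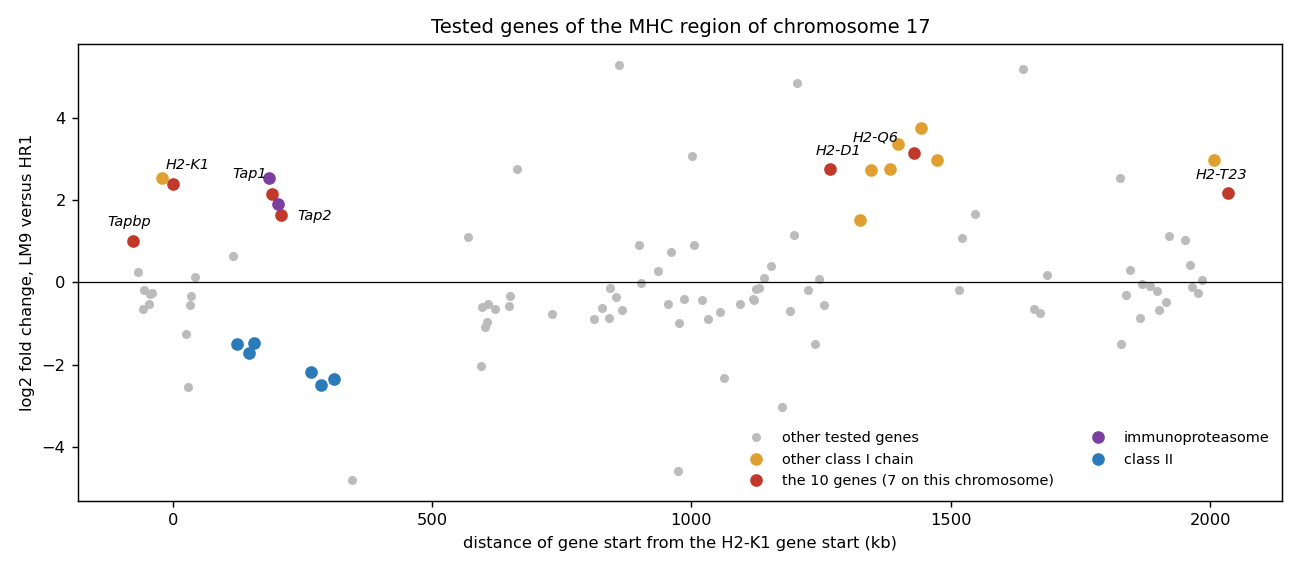
Log2 fold change of LM9 against HR1 (vertical axis) of each tested gene of the MHC region by the distance of its start from that of *H2-K1* in kb (horizontal axis). Class I chains and immunoproteasome genes are above 0 and the 6 listed class II genes below 0, although they are next to each other, and the 83 further genes have a median of -0.32.

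Likeness to 3 of the 10 over the 9 tumours was the root mean square difference of log2 CPM centred on each gene's mean. The 10 genes were not compared with each other. The nearest genes were sought among 10523 others with a mean of 5 CPM or more. For *H2-K1* these were *H2-K2* (0.10), *Irf9* (0.11), *H2-T-ps* (0.13), *H2-T22* (0.16) and a gene with no symbol in the annotation used (0.16), of which *H2-K2*, *H2-T-ps* and *H2-T22* are, like *H2-K1*, class I sequences. The genes nearest to *B2m* were *Psmb9* (0.18), *Fam241a* (0.21), *Parp11* (0.22), *Ddx58* (0.22), the RNA sensor RIG-I, and *Irf9* (0.23). Nearest to *Nlrc5* were *Ifit2* (0.41), *Gbp6* (0.47), *Trim30a* (0.49), *Cgnl1* (0.49) and *Gbp3* (0.51), of which *Ifit2*, *Gbp6*, *Trim30a* and *Gbp3* are known interferon-induced genes. The points are 9 tumours of 3 models, so that a difference between models weighs in each value.

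Class I genes are also expressed by host cells. The libraries came from cells sorted for GFP, and markers of other cell types differed between the models. Of 15 leukocyte markers 12 were listed, and *Cd3e* and *Ncr1*, which define T and natural killer cells, were not among the listed genes. Of the 12, 0 rose and 5 fell in LM1, 0 rose and 9 fell in LM9, and between LM9 and LM1 only *Cd68*, named after its value was seen, differed, being higher in LM9. For these and the marker lists that follow, 16.7% of all tested genes rose and 18.7% fell in LM1, and 20.4% rose and 21.9% fell in LM9. Between LM9 and LM1, 11.5% of all tested genes were higher in LM9 and 10.6% lower. The summed level of the 12 was 191 to 782 CPM in HR1, 169 to 181 in LM1 and 205 to 247 in LM9. *Cd68* alone took 107 to 138 CPM in LM9, and without it the other 11 markers summed to 150 to 661 CPM in HR1, 151 to 166 in LM1 and 69.5 to 111 in LM9. Among the 12, *Ptprc*, the pan-leukocyte gene CD45, was at 2.29 to 11.3, 2.46 to 4.89 and 3.16 to 6.01 CPM. The 10 fibroblast markers summed to 23424 to 35254 CPM in HR1, 10404 to 13828 in LM1 and 8976 to 10546 in LM9, with 0 higher in either LM model, 5 lower in LM1 and 9 in LM9. The 8 endothelial markers summed to 11.5 to 38.9, 167 to 230 and 261 to 298 CPM; in LM9 2 rose (*Cdh5* and *Kdr*) and 3 fell. Without these 2 genes, named after their values were seen, the other 6 summed to 8.52 to 23.8 CPM in HR1, 4.87 to 5.73 in LM1 and 6.74 to 9.34 in LM9, and *Pecam1* was at most 1.25 CPM in the LM tumours. The part of these cells, and of the lower fibroblast gene levels, in the class I differences was not tested, and in bulk samples more RNA per cell and more cells of a type cannot be told apart.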

How the data were processed

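RNA-seq of GFP-positive cells sorted from 9 tumours was analysed, and models and replicate numbers came from the sample labels. The authors aligned the reads of 50 nt from a stranded library to mm10 with STAR and used qCount of QuasR to count them by gene over exons. The deposited tables hold these whole-number counts, not normalised, for 14108 genes, of which 14085 were matched to a symbol through RefSeq. Exon lengths, exon overlaps and shared 50-base windows came from GENCODE (GRCm38). In the present work counts were normalised with TMM, and 14086 genes passed the filter by expression of edgeR 4.0.16 (R 4.3.3). The main test was its robust quasi-likelihood F-test in 1 model over the 3 groups with Benjamini-Hochberg adjustment over all tested genes and a threshold of 0.05. The authors used limma-voom, an alternative here. Ratios were compared by exact permutation over tumours (scipy 1.17.1). No libraries were duplicates. All 10 genes are named; of each list at most 4 genes with the smallest p-value in both LM models together against HR1 and 4 in LM9 against LM1 are named, with exceptions given in the text. The 10 genes, the lists and tests were chosen with earlier results of these data known. Promoters came from RefSeq (GRCm38.p6); no protein sequence was used here. Alternatives were RLE factors, library size only, no filter, DESeq2 1.42.0, limma-voom 3.58.1, only the models compared, the replicate number as a block, and each tumour left out in turn. Some genes of the lists are not reported here by name.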

Additional observations from a re-analysis of the deposited data

Results flagged for a closer look

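For 9 of the 10 genes the effect against HR1 differed between the LM models, by the edgeR test of LM9 against LM1 with Benjamini-Hochberg adjustment, by which 11.5% of all tested genes were higher in LM9 and 10.6% lower. In each case every LM9 tumour was above every LM1 tumour, as for 31.9% of all tested genes. The log2 difference was 1.15 for *H2-K1*, 1.31 for *H2-D1*, 1.26 for *H2-Q6* and 1.96 for *H2-T23*. It was 0.99 for *B2m*, 1.18 for *Tap1*, 0.80 for *Tap2*, 1.02 for *Tapbp* and 2.76 for *Nlrc5*. *Erap1*, at 0.03, was the gene that did not pass. For *H2-T23* and *Tapbp* the LM1 tumours overlapped those of HR1, and the LM9 tumours stood above both.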

How the results depend on the processing

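Over the alternatives with all tumours, the count of the 10 genes that rose was 7 to 8 in LM1 against HR1, 9 to 10 in LM9 against HR1, 7 to 9 in LM9 against LM1 and 9 in both LM models together, and no call changed direction. Leaving out 1 tumour at a time gave 6 to 8, 9 to 10, 6 to 9 and 9 to 10. Among all genes the calls then ranged from 3121 to 7453, 3768 to 7862, 1150 to 6413 and 4928 to 7902, the highest without HR1 tumour 1 in each case. For the other class I chains the range was 6 to 17 in LM9 against LM1. The inducible proteasome genes gave 3 to 5 in LM1, 2 to 5 in LM9 and 3 to 5 in both, and the constitutive core 2 to 6, 2 to 6, 4 to 14 (LM9 against LM1) and 0 to 4 (both). Trimming and loading partners gave 2 to 9, 4 to 7, 0 to 7 and 5 to 10, regulators 7 to 13, 7 to 11, 2 to 10 and 7 to 14, and class II genes 1 to 4, 6 to 10, 2 to 7 and 6 to 9. With only the models compared, the calls in LM1 against HR1 were 3008 over all genes (4994 in the main fit) and 2 trimming partners, the inducible proteasome genes in LM9 against HR1 were 2, and those of LM9 against LM1 were 7709 over all genes (3102), 18 other class I chains, 3 inducible proteasome genes, 8 trimming partners, 12 regulators and 8 class II genes. DESeq2 called 8 trimming partners and 3 class II genes in LM1. With library size only, 6 constitutive core genes were called in LM1 and 2 in both LM models, 1 trimming partner in LM9 against LM1, and mean *Erap1* in LM1 was 80.6 CPM. The replicate numbers did not pair the tumours, since same-numbered tumours correlated between -0.117 and 0.162. With the replicate block 1 constitutive core gene was called in both LM models and 1 trimming partner in LM9 against LM1, and *Tap2* (adjusted p = 0.0658) and *Tapbp* (adjusted p = 0.0622) missed the threshold between LM9 and LM1. Both also missed it with library size only (adjusted p = 0.0643 and 0.0655), and *Tapbp* in LM9 against HR1 did so with only the models compared (0.0748). Where a count moved, the cause was not tested.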

Other observations

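*Cfb* and *Tnf*, genes of the MHC region that belong to no list above, are named here after their values were seen. *Cfb*, a complement factor, had a log2 fold change of 5.28 ± 0.50 in LM9 against HR1 by edgeR (adjusted p = 1.7e-04) and *Tnf*, the inflammatory cytokine, one of 4.84 ± 0.32 (adjusted p = 3.4e-05), and both were also higher in LM9 than in LM1, by 3.40 and 3.32.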
